A study of Mus musculus with 79 samples.

Results

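The SLC25 family is the group of carrier proteins that moves metabolites across the inner mitochondrial membrane, and its genes are described here in mouse muscle lacking 1 of 2 clock-related regulators. Members were taken by symbol, as Slc25a followed by a number, leaving out Slc25a20. Of the 46 such names in the mouse annotation, 38 were listed in the RORA tables and 37 of those in the PER2 tables, which do not list Slc25a53, out of 15771 gene names in all. The 8 names listed in neither set, Slc25a2, Slc25a18, Slc25a21, Slc25a31, Slc25a41, Slc25a43, Slc25a48 and Slc25a54, have no value here. PER2 represses the transcription factors at the core of the circadian clock. RORα, the product of Rora, is a nuclear receptor that binds DNA and activates clock and metabolic genes. The RNA-seq libraries came from muscle of mice with a muscle-specific knockout (MKO) of PER2 (24 libraries) and their controls (CTRL, 19 libraries), and of RORA MKO (18 libraries) and their CTRL (18 libraries), 79 in all. CTRL mice are wild type by their labels. Each genotype was sampled at zeitgeber time (ZT, hours after lights on) 0, 4, 8, 12, 16 and 20, with 3 or 4 mice at each ZT. The strain, age and sex of the mice, the muscle taken and the promoter that drives the deletion are not stated in the sources used here.

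All values are the authors' comparisons of MKO with CTRL at 1 ZT, each from its own mice, as log2 fold changes. In the RORA set a positive value means higher in MKO. The PER2 tables do not state which genotype is over which, so PER2 values are given as positive or negative and never as higher or lower in MKO. A mean ± SD is taken over the 6 ZT, so its SD holds the time of day as well as sampling error. A gene was called at a ZT when its adjusted p in the authors' deposited table was under 0.05, and on the mean over ZT when a combined test adjusted over all genes was under 0.05. Values of single libraries were not analysed here, and their depth is unknown. Rora itself fell by 1.78 ± 0.15 in RORA MKO muscle, and Per2 had a mean of 0.37 ± 0.29 in the PER2 set, which does not settle the direction. All 12 skeletal muscle markers looked for were listed, with mean normalized counts from 7990 to 792710, while the 4 liver markers listed in the RORA tables lay between 0.77 and 18.3. Muscle RNA was measured in bulk, so fewer cells of a type and less RNA per cell cannot be told apart in any value given here.

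SLC25 carriers share a fold of repeated membrane-spanning helices around a central cavity, and most of them exchange 1 metabolite for another. In muscle the ADP/ATP carrier exports ATP made by oxidative phosphorylation, the phosphate carrier brings in the phosphate for it, and the aspartate/glutamate and oxoglutarate carriers form the membrane steps of the malate-aspartate shuttle, which passes reducing power from the cytosol to the respiratory chain. Other members carry amino acids, cofactors, nucleotides, iron or glutathione, and a few resemble uncoupling proteins.

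Ranked by level per length of transcript, the family was dominated by these muscle energy carriers. In the RORA tables Slc25a4, the main ADP/ATP carrier of muscle, had 17449 mean normalized counts per kb and made up 66.1% of the summed level of the 38 members. The phosphate carrier Slc25a3 had 3999 counts per kb, the oxoglutarate carrier Slc25a11 1436 and the aspartate/glutamate carrier Slc25a12 877. Next came the glutathione carrier Slc25a39 with 239 and the NAD carrier Slc25a51 with 190 counts per kb, and these 6 genes together held 91.7% of the sum. The first 4 had the same order in the PER2 tables, from 1382 CPM per kb for Slc25a4 to 60.8 for Slc25a12. At the low end, Slc25a13, the other aspartate/glutamate carrier, had 3.95 counts per kb in the RORA tables. The levels are means over libraries as deposited and carry no error.

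Promoter sequences of members whose fold changes stand out below are given first, since the study removes 1 transcription factor that binds DNA (RORα) and 1 regulator that acts through others. The RefSeq promoter table, build GRCm38.p6, gives 300 bases around each transcription start, most of them upstream, and held 38 promoters of 29 of the 38 members. The sequences run 5′ to 3′ along the gene, all on the minus strand, in lower case with matches to the searched motifs in capitals. They are shown for Slc25a30 (chr14:75786988-75787287), the member with the lowest mean in RORA MKO muscle, for the 1 of 3 listed starts of Slc25a25 with a match (chr2:32424017-32424316), the member with the highest mean, for Slc25a34 (chr4:141623785-141624084), which changed with ZT, and for Slc25a36 (chr9:97110992-97111291), a positive call in the PER2 set.
Slc25a30: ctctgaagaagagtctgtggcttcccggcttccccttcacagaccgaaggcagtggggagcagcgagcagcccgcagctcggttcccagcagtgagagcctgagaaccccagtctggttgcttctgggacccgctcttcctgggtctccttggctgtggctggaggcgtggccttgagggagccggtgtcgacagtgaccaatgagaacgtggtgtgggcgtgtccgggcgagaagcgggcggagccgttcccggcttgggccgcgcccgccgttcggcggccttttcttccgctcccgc
Slc25a25: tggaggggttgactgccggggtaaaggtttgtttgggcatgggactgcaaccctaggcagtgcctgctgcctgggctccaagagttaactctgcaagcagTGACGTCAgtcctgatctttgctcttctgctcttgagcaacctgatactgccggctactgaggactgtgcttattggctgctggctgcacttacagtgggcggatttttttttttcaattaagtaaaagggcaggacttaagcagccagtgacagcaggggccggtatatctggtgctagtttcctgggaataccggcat
Slc25a34: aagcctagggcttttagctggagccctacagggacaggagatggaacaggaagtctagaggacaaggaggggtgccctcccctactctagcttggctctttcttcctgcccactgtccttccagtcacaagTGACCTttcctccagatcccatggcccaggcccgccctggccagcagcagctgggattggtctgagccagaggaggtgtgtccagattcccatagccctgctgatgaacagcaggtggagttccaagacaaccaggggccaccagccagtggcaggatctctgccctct
Slc25a36: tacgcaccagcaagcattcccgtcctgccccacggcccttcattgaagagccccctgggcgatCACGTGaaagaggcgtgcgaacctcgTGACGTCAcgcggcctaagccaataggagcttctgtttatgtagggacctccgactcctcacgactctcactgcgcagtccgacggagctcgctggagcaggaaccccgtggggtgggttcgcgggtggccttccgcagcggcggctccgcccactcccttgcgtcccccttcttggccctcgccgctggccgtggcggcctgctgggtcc
Both strands were searched for the ROR response element, for its core half-site AGGTCA (the element ends in this or in GGGTCA), for TCAAGGTCA, an element of estrogen-related receptors that contains AGGTCA, for the E-box CACGTG, for the D-box TTATGTAA and for the cAMP response element TGACGTCA. The ROR element was in 0 of the 38 member promoters and in 0.384% of all 32851 promoters in the table. AGGTCA was in 4 member promoters, those of Slc25a34, Slc25a39, Slc25a45 and Slc25a47, and in 16.3% of all promoters. In Slc25a34 it lies on the other strand and reads TGACCT in the sequence above. CACGTG was in 7 member promoters of 6 genes (Slc25a1, Slc25a13, Slc25a14, Slc25a15, Slc25a33 and Slc25a36) and in 7.15% of all promoters. TGACGTCA was in 2, those of Slc25a25 and Slc25a36, against 1.79% of all promoters. TCAAGGTCA (0.423% of all promoters) and TTATGTAA (0.938%) were in none of the 38. A match is a run of letters in this window and not a bound site.

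In RORA MKO muscle the carriers did not move as a block: the abundant energy carriers and mitoferrin 1 rose by small to moderate amounts, the ATP-Mg/phosphate carrier Slc25a25 rose the most, and the uncoupling-like carrier Slc25a30 fell the most. On the mean over ZT 20 of the 38 members were called, 13 higher and 7 lower, where 38.2% of all 14253 genes were called, 18.9% higher and 19.3% lower. Well-expressed genes are called more often. Among genes whose mean normalized count was 50 or more, 18 of 32 members (56.2%) and 53% of 9306 genes were called, so the members' share lay near that background. The median of the members' means was 0.03, against 0.00 for all genes. Only 3 of the 20 called members had a mean of at least 0.5 in size, namely Slc25a25, Slc25a13 and Slc25a30. The test weights each ZT by its error, and the weighted mean was 0.71 for Slc25a25, 0.24 for Slc25a13 and -1.19 for Slc25a30, so that of Slc25a13 lay under 0.5.

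By time of day, members were called most often at ZT8. At ZT0 the authors' deposited table called 11 members, 9 higher and 2 lower, and 28.1% of all genes (14.8% higher, 13.4% lower). At ZT4 it called 16, 11 higher and 5 lower, and 29% of all genes (14.8% higher, 14.2% lower). At ZT8 it called 24, 16 higher and 8 lower, and 27.8% of all genes (13.7% higher, 14.1% lower). The count at ZT8 was the highest of the 6 and those at ZT0 and ZT16 the lowest. At ZT12 the authors' deposited table called 13, 10 higher and 3 lower, and 22.1% of all genes (11% higher, 11.1% lower). At ZT16 it called 11, 8 higher and 3 lower, and 20.7% of all genes (10.4% higher, 10.3% lower). At ZT20 it called 17, 12 higher and 5 lower, and 32.2% of all genes (16.6% higher, 15.6% lower). More members were higher than lower at every ZT, while all genes called split about evenly. Among genes with a mean count of at least 50, 22 of 32 members (68.8%) were called at ZT8 against 35.7% of 9306 genes. That share was computed for ZT8 alone, the ZT with the most members called, and not for the other ZT. In all, 30 members were called at 1 or more ZT (58.1% of all genes) and 5 at all 6 ZT (8.65% of all genes), namely Slc25a4, Slc25a11, Slc25a12 and Slc25a37 higher and Slc25a30 lower.

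**Figure D1:**
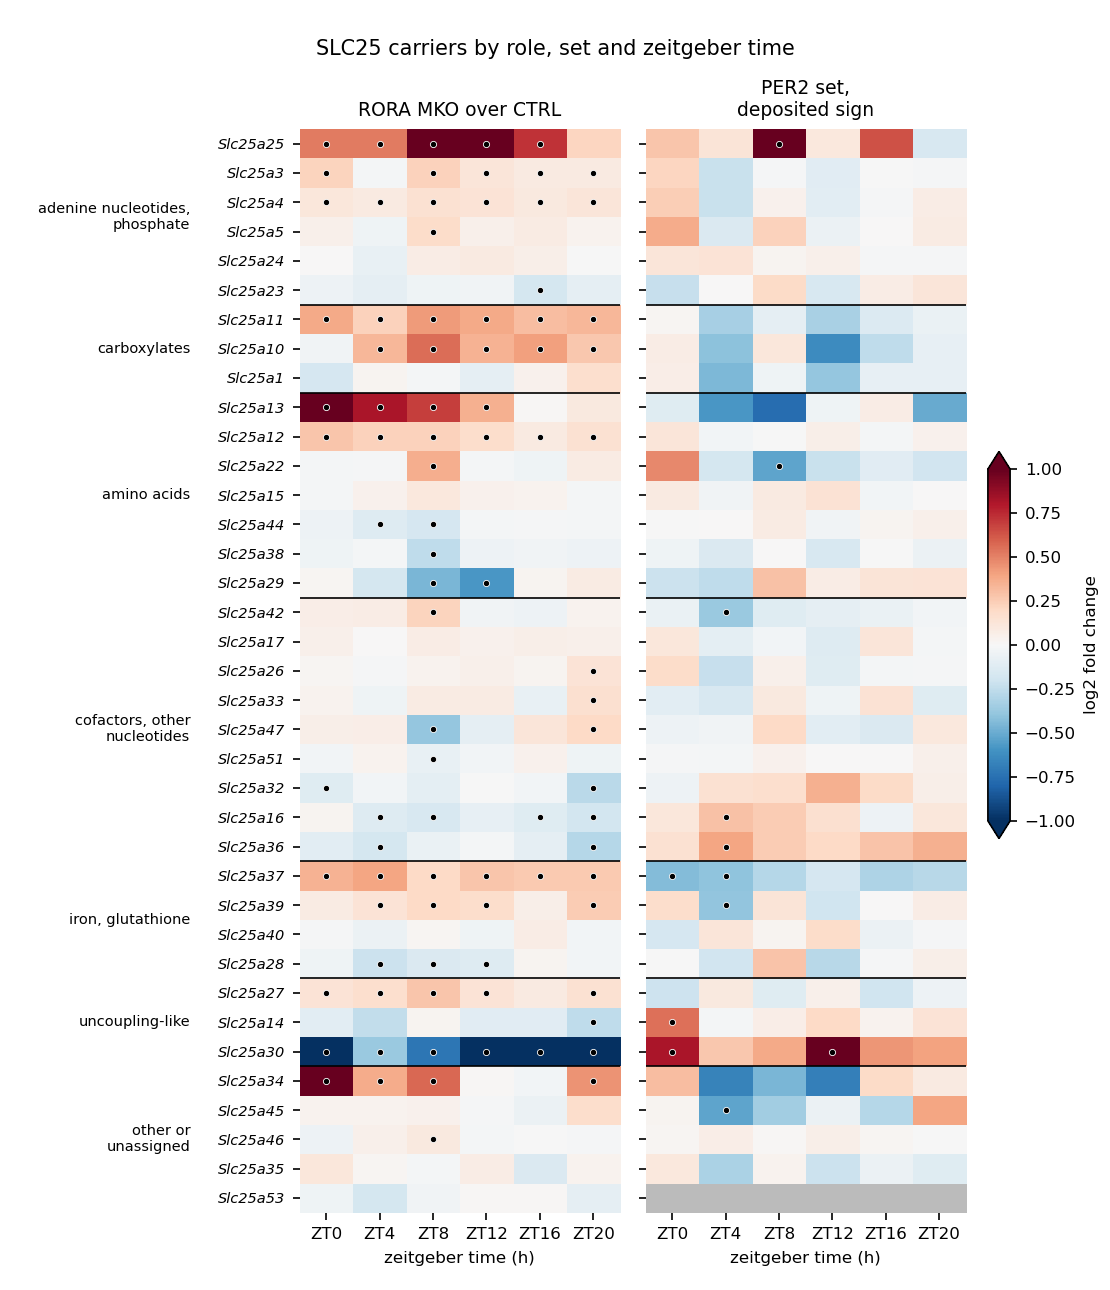
Deposited log2 fold changes of 37 of the carriers (rows, grouped by what they carry) at the 6 ZT (columns, h) in the RORA set (MKO over CTRL, left) and the PER2 set (deposited sign, right), with colour held at ±1 and a dot where the authors' adjusted p was under 0.05. Slc25a30 is blue at each ZT on the left and red at each ZT on the right, and Slc25a53 (grey) has no PER2 value.

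Of the 6 carriers of adenine nucleotides and phosphate, 3 rose, 1 fell and 2 did not pass the test on the mean over ZT in RORA MKO muscle. Slc25a4 had log2 fold changes of 0.11, 0.09, 0.15, 0.13, 0.10 and 0.12 at ZT0, 4, 8, 12, 16 and 20 in the authors' deposited tables, with errors of 0.02. The values hardly differed between ZT, and the mean rise of 0.12 ± 0.02, or 8.35%, had an adjusted p of 3.92e-47. Slc25a3 had 0.22, -0.02, 0.23, 0.12, 0.09 and 0.09 in the authors' deposited tables, with errors of 0.02 or 0.03. It was called higher at 5 ZT and lay at 0 within its error at ZT4, with a mean of 0.12 ± 0.09 (adjusted p 7.04e-29). The ATP-Mg/phosphate carriers, which set the adenine nucleotide content of mitochondria under the control of calcium, went different ways. Slc25a25 had 0.52, 0.52, 1.44, 1.24, 0.72 and 0.21 in the authors' deposited tables, with errors of 0.18 to 0.29. All 6 values are above 0 and those at ZT8 and ZT12 are the highest, and the mean rise was 0.78 ± 0.47, or 71.2% (adjusted p 5.31e-12). Slc25a23 had -0.05, -0.09, -0.04, -0.04, -0.17 and -0.09 in the authors' deposited tables. It fell by 0.08 ± 0.05 on the mean (adjusted p 0.00765) and was called at ZT16 alone, and it was past the threshold only with ZT16 included (adjusted p 0.0539 without it). Slc25a24 (0.03 ± 0.06) and Slc25a5 (0.06 ± 0.07), another ADP/ATP carrier, were not called on the mean.

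Among the 3 carboxylate carriers 2 rose in RORA MKO muscle. Slc25a11, the oxoglutarate/malate carrier, had 0.38, 0.23, 0.43, 0.38, 0.31 and 0.33 in the authors' deposited tables, with errors of 0.03. It was called at each ZT and had a mean rise of 0.34 ± 0.07, or 26.8%, with the smallest adjusted p of the family (3.24e-156). The dicarboxylate carrier Slc25a10, which exchanges malate or succinate for phosphate, had -0.04 at ZT0 and 0.33, 0.55, 0.35, 0.41 and 0.27 at ZT4 to ZT20 in the authors' deposited tables. It was thus called at every ZT but ZT0, at a mean level of 39.9 normalized counts, with a mean of 0.31 ± 0.20. The weighted mean, on which the test rests, was 0.22 (adjusted p 2.30e-04). The citrate carrier Slc25a1 had a mean of -0.01 ± 0.12 and was called at no ZT.

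Of the 7 amino acid carriers 2 rose, 1 fell and 4 were not called on the mean in RORA MKO muscle. Slc25a12, the aspartate/glutamate carrier of muscle and heart, had 0.28, 0.23, 0.23, 0.18, 0.09 and 0.15 in the authors' deposited tables, with errors of 0.02 or 0.03. It was called at each ZT, with a mean rise of 0.19 ± 0.07, or 14.4% (adjusted p 4.32e-69), and its ZT16 value was the lowest. Slc25a13, its relative known from liver, had 1.04, 0.82, 0.69, 0.35, 0.01 and 0.10 in the authors' deposited tables, with errors of 0.11 to 0.31. Its level was the lowest of the members, 12.3 normalized counts, and its mean was 0.50 ± 0.41. The weighted mean, on which the test rests, was 0.24 (adjusted p 0.0052), and the call was lost without ZT0, with an adjusted p of 0.0916. Slc25a44, a carrier of branched-chain amino acids, fell by 0.07 ± 0.07 (adjusted p 0.00366), a call lost without ZT8 (adjusted p 0.0824). The glutamate carrier Slc25a22 and the glycine carrier Slc25a38 were each called at ZT8 alone, at 0.36 and -0.26 in the authors' deposited tables. Slc25a29, a carrier of basic amino acids, was called at ZT8 (-0.46) and ZT12 (-0.58) in the authors' deposited tables, and its mean of -0.18 ± 0.28 (weighted mean -0.06) did not pass. With Stouffer's sum in place of the weighted mean it passed as lower (adjusted p 6.21e-04). The ornithine carrier Slc25a15 had a mean of 0.03 ± 0.05 and was called at no ZT.

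The 10 carriers of cofactors and other nucleotides split in RORA MKO muscle into 2 that rose, 3 that fell and 5 that were not called on the mean. Slc25a16, related to a coenzyme A carrier of yeast, had 0.02, -0.13, -0.16, -0.08, -0.12 and -0.18 in the authors' deposited tables, with a mean fall of 0.11 ± 0.07 (adjusted p 4.11e-08). Slc25a36, a pyrimidine nucleotide carrier, had -0.11, -0.17, -0.06, -0.02, -0.09 and -0.28 in the authors' deposited tables, with a mean fall of 0.12 ± 0.09 (adjusted p 1.25e-05). Both were below 0 at 5 or 6 of the 6 ZT, and both had their lowest value at ZT20. At that ZT all 8 Schwann cell and 6 of 8 white fat markers were called higher. So were 7 of 8 endothelial, all 5 red blood cell and 1 of 4 liver markers. The folate carrier Slc25a32 also had its lowest value at ZT20, with -0.12, -0.03, -0.09, -0.01, -0.03 and -0.27 in the authors' deposited tables. Its mean fall of 0.09 ± 0.10 (adjusted p 3.55e-04) was not past the threshold without ZT20 (adjusted p 0.0735). The part of those cell types in these values was not tested. At ZT20 the RORA fold changes of all genes also went with GC content (Spearman's rho 0.323, against 0.08 to 0.17 at the other ZT). Transcripts of Slc25a16, Slc25a36 and Slc25a32 have 43.4%, 40.7% and 41.2% GC. With the trend in length and GC content removed, Slc25a16 and Slc25a36 stayed called on the weighted mean, and Slc25a32 did not (adjusted p 0.227). The coenzyme A carrier Slc25a42 had a mean of 0.05 ± 0.10 (adjusted p 0.0458), with 0.23 at ZT8 in the authors' deposited table, and without ZT8 its adjusted p was 0.676. Slc25a17, Slc25a26, Slc25a33, Slc25a47 and Slc25a51 were not called, with means between -0.01 and 0.05. Slc25a47 had -0.39 at ZT8 and 0.20 at ZT20 in the authors' deposited tables, both called and of opposite sign.

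Of the 4 iron and glutathione carriers 2 rose, 1 fell and 1 was not called on the mean in RORA MKO muscle. Slc25a37, mitoferrin 1, which brings iron into mitochondria for heme and iron-sulfur clusters, had 0.35, 0.40, 0.20, 0.27, 0.26 and 0.26 in the authors' deposited tables of the RORA set, with errors of 0.04 or 0.05. It was called at each ZT, with a mean rise of 0.29 ± 0.07, or 22.4% (adjusted p 1.02e-47). Mitoferrin 1 is best known from red blood cell precursors, so the red blood cell genes are given beside it: 2 of the 5 listed in the RORA tables rose (Hbb-b1, 0.20 ± 0.19, and Hba-a1, 0.23 ± 0.18), with medians of 0.01, 0.35, 0.36, 0.02, 0.00 and 0.29 at the 6 ZT. Slc25a37 had its highest value at ZT4 and its lowest at ZT8, where those medians were alike, and the part of red blood cells in its values was not tested. Slc25a28, mitoferrin 2, which is expressed in many tissues, had -0.04, -0.21, -0.15, -0.13, 0.03 and -0.03 in the authors' deposited tables. The mitoferrins thus went opposite ways, with a mean fall of 0.09 ± 0.09 for Slc25a28 (adjusted p 0.00419) that was lost without ZT4 (adjusted p 0.0714). The glutathione carrier Slc25a39 had 0.08, 0.14, 0.20, 0.17, 0.06 and 0.26 in the authors' deposited tables. All 6 values are above 0, with a mean rise of 0.15 ± 0.07 (adjusted p 1.37e-13), while its close relative Slc25a40 had a mean of -0.01 ± 0.05 and was not called.

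Of the 3 uncoupling-like carriers 1 rose, 1 fell and 1 was not called on the mean in RORA MKO muscle, and the one that fell had the largest mean change of the family. Slc25a30, also called kidney mitochondrial carrier protein 1, had -1.13, -0.37, -0.72, -1.95, -1.43 and -1.20 in the authors' deposited tables of the RORA set, with errors of 0.12 to 0.17. All 6 values are below 0 and called, the fall at ZT12 is the deepest and that at ZT4 the smallest, and the mean fall of 1.13 ± 0.55 corresponds to a level that fell by 54.4% (adjusted p 1.46e-96). Slc25a27, also called UCP4 and known from brain, rose by 0.16 ± 0.06 (adjusted p 5.99e-08) and was called at every ZT but ZT16. Slc25a14, also called UCP5, had a mean of -0.13 ± 0.10 that was not called, and it was called at ZT20 alone (-0.26 in the authors' deposited table). With Stouffer's sum (adjusted p 2.82e-04) and with limma on the 6 values (adjusted p 0.0332) its mean passed as lower.

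**Figure D2:**
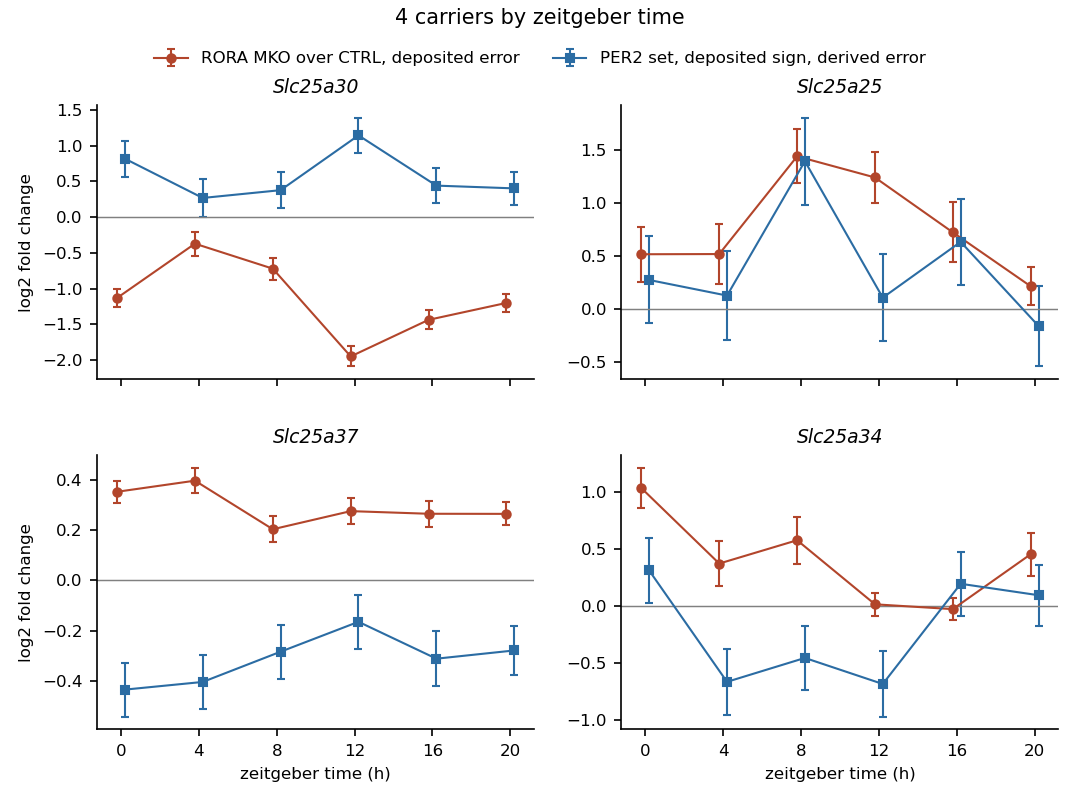
Log2 fold changes of 4 carriers (vertical axes, each with its own range) against ZT (h, horizontal axis) in the RORA set (circles, MKO over CTRL, bars are the deposited errors) and the PER2 set (squares, deposited sign, bars are errors derived from the deposited p). Slc25a30 and Slc25a37 lie on opposite sides of 0 in the 2 sets at each ZT, and Slc25a25 is furthest from 0 at ZT8 in both, at 1.44 in the RORA set and at 1.39 on the deposited sign in the PER2 set, which would be a trough if the genotypes were the other way round.

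Of the 5 carriers with other or unassigned substrates, 1 rose in RORA MKO muscle. Slc25a34, which resembles the yeast oxaloacetate carrier, had 1.03, 0.37, 0.57, 0.01, -0.03 and 0.45 in the authors' deposited tables, with errors of 0.10 to 0.20. It was called higher at ZT0, ZT4, ZT8 and ZT20 and was near 0 at ZT12 and ZT16, and its mean was 0.40 ± 0.39. The weighted mean of 0.22 (adjusted p 5.21e-04) was not past the threshold without ZT0 (adjusted p 0.10). Slow fibre genes also had their highest values at ZT0, with medians of 0.69, -0.19, 0.14, 0.03, 0.02 and -0.11 over the 10 listed, of which 1 (Casq2) was called higher on the mean. White fat markers had their lowest median at ZT0, -0.75 over the 8 listed. Of 6 brown fat markers, Ucp1 (3.85) and Cidea (0.86) had their highest values at ZT0 in the authors' deposited table. Their mean levels were 3.25 and 4.09 normalized counts, and the median of the 6 at ZT0 was 0.12. Slc25a13 and Slc25a34 both had their highest value at that ZT, and the part of fibre type and of fat in these values was not tested. Slc25a35, Slc25a45, Slc25a53 and Slc25a46, an outer membrane protein involved in mitochondrial shape, were not called, with means between -0.05 and 0.04.

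**Figure D3:**
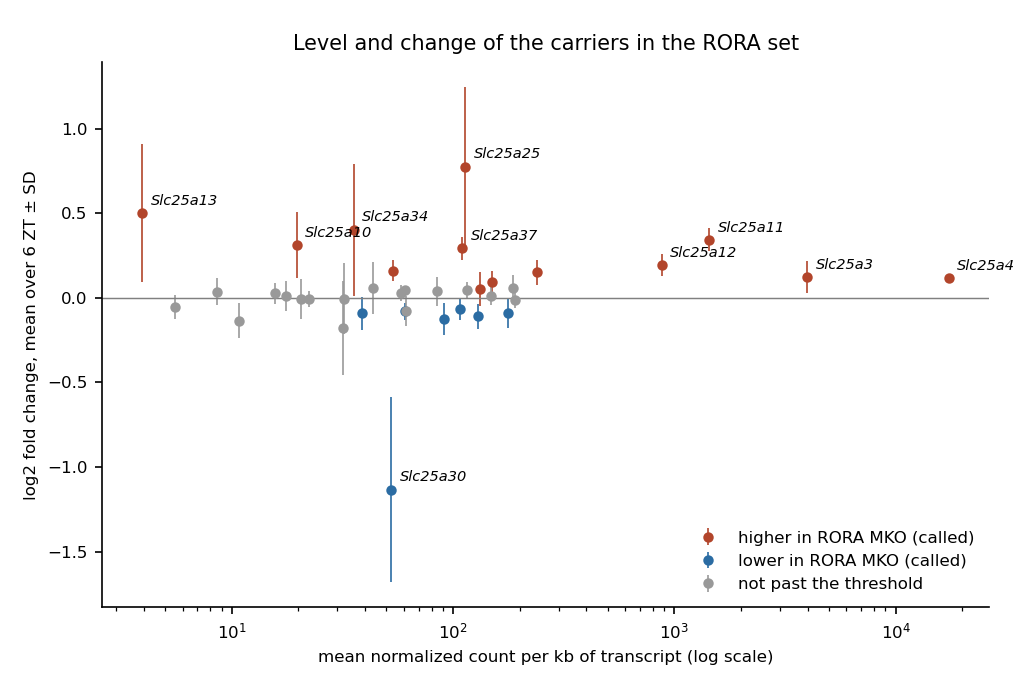
Mean log2 fold change over the 6 ZT in the RORA set (vertical axis, bars are the SD over ZT) against mean normalized count per kb of transcript (horizontal log axis), 1 point per carrier, in red if higher in MKO, blue if lower and grey if not past the threshold. The 4 members with the highest level, at 877 to 17449 counts per kb, all lie above 0, and the members with means past 0.5 in size have levels of 114 counts per kb or less.

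The size of the RORA effect differed between ZT for 11 of the 38 members by Cochran's Q, where 11% of all genes passed. A mean count of at least 50 was held by 32 members, and the share of such genes that passed Q was not computed. Slc25a30 had the smallest adjusted p (3.69e-10), followed by Slc25a3 (1.61e-09), Slc25a34 (4.52e-05) and Slc25a12 (3.03e-04). Their patterns differ: Slc25a30 fell most at ZT12, Slc25a3 rose most at ZT0 and ZT8 and not at ZT4, Slc25a34 rose most at ZT0, and Slc25a12 rose least at ZT16. Each ZT has its own mice, so time of day and the mice sampled at a ZT cannot be told apart. Of the members, 16 had 1 sign at all 6 ZT (34.6% of all genes), and 14 of the 20 called members did. A call on the mean of the same 6 values favours genes of 1 sign, and the share among all called genes was not computed.

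In the PER2 set most carriers were not called. Slc25a30 and Slc25a36 were positive and Slc25a37 negative on the mean under every setting tried. On the mean over ZT 7 of 37 members were called, 4 positive and 3 negative, where 21.6% of all 12952 genes were called, 10.9% positive and 10.6% negative. By ZT, the authors' deposited tables called 3 members at ZT0 (2.7% of all genes), 7 at ZT4 (12.2%), 2 at ZT8 (1.78%) and 1 at ZT12 (3.34%). At ZT16 and ZT20 the authors' deposited tables called 0 members by their likelihood ratio test (0.811% and 1.52% of all genes), with 2 and 3 members at an unadjusted p under 0.05. No member was called for change with ZT by Cochran's Q (0.0463% of all genes), and 6 had an unadjusted p under 0.05, both with derived errors and on z values. In all, 11 members were called at 1 or more ZT (15.3% of all genes) and 5 had 1 sign at all 6 ZT (18.6% of all genes).

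Slc25a30 was positive at each ZT, with 0.82, 0.27, 0.38, 1.14, 0.44 and 0.40 in the authors' deposited tables, and it was called at ZT0 and ZT12. Its mean of 0.57 ± 0.34 (adjusted p 4.04e-07) was the largest in size of the called members. The value furthest from 0 was at ZT12 and the nearest at ZT4, as in the RORA set. Slc25a36 was positive at each ZT too, with 0.15, 0.40, 0.25, 0.20, 0.29 and 0.36 in the authors' deposited tables and a mean of 0.27 ± 0.09 (adjusted p 8.69e-07). Slc25a37 was negative at each ZT, with -0.43, -0.40, -0.28, -0.16, -0.31 and -0.28 in the authors' deposited tables and a mean of -0.31 ± 0.10 (adjusted p 3.85e-11). All 5 red blood cell genes listed in the PER2 tables were called negative, with medians of -0.12, -1.35, -0.29, -1.01, 0.06 and -0.20 at the 6 ZT. At ZT4 and ZT12, where those medians were furthest from 0, Slc25a37 was at -0.40 and -0.16 in the authors' deposited tables, and the part of red blood cells in its values was not tested.

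The other 4 members called on the mean in the PER2 set were lost under some settings. Slc25a16 had 0.11, 0.30, 0.25, 0.16, -0.05 and 0.11 in the authors' deposited tables, with a mean of 0.15 ± 0.12 (adjusted p 2.13e-04, and 0.0726 without ZT4 and ZT12). Slc25a32 had -0.05, 0.15, 0.17, 0.35, 0.19 and 0.06 in the authors' deposited tables, with a mean of 0.14 ± 0.14 (adjusted p 0.0493, and 0.282 without ZT12). Slc25a11 had 0.02, -0.34, -0.09, -0.32, -0.14 and -0.07 in the authors' deposited tables, with a mean of -0.16 ± 0.14 (adjusted p 0.0183, and 0.154 without ZT4). Its values furthest from 0 are at ZT4 and ZT12. Slc25a42 had -0.06, -0.37, -0.12, -0.09, -0.07 and -0.03 in the authors' deposited tables, with a mean of -0.12 ± 0.13 (adjusted p 0.0429, and 0.382 without ZT4). Across the 12333 PER2 genes with a known length, the fold change at ZT4 and ZT12 went with transcript length (Spearman's rho 0.522 and 0.443, across genes, which are not independent replicates). Among the 37 members rho was 0.447 at ZT4 and 0.489 at ZT12. With the trend in length and GC content removed, 2 members rather than 7 were called at ZT4, and the median of the members at ZT4 was -0.07 instead of -0.14.

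Some members were called at a single ZT only in the PER2 set. In the authors' deposited tables Slc25a14 had 0.55 at ZT0, Slc25a25 had 1.39 and Slc25a22 -0.53 at ZT8, and Slc25a39 (-0.39) and Slc25a45 (-0.53) were called at ZT4. Slc25a25 thus had its value furthest from 0 at ZT8 in both sets, of a direction not known in PER2, though its PER2 mean of 0.40 ± 0.55 was not past the threshold (adjusted p 0.0757). The abundant carriers Slc25a4 (0.00 ± 0.16), Slc25a3 (-0.03 ± 0.14) and Slc25a12 (0.03 ± 0.05) were called at no ZT in the PER2 set.

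Set side by side, the means of the 2 sets had opposite deposited signs for 25 of the 37 shared members, against 65.1% of 11429 shared genes. Called on the mean in both sets were 7 of the 37 members, or 18.9%, where 14.3% of shared genes were. These 7 are 35% of the RORA and 100% of the PER2 calls among members. Over all genes 1638 were called in both, beside 5449 RORA calls and 2792 PER2 calls, which include genes listed in 1 set only. All 7 (Slc25a11, Slc25a16, Slc25a30, Slc25a32, Slc25a36, Slc25a37 and Slc25a42) had opposite deposited signs, as did 85.5% of the 1638 genes called in both sets. Pearson's r between the 2 means was -0.53 across the 37 members and -0.45 across all shared genes, a description across genes with no p. The sets have separate CTRL libraries by their labels. Whether opposite signs are opposite effects cannot be told apart from a different order of the genotypes in the PER2 tables.

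**Figure D4:**
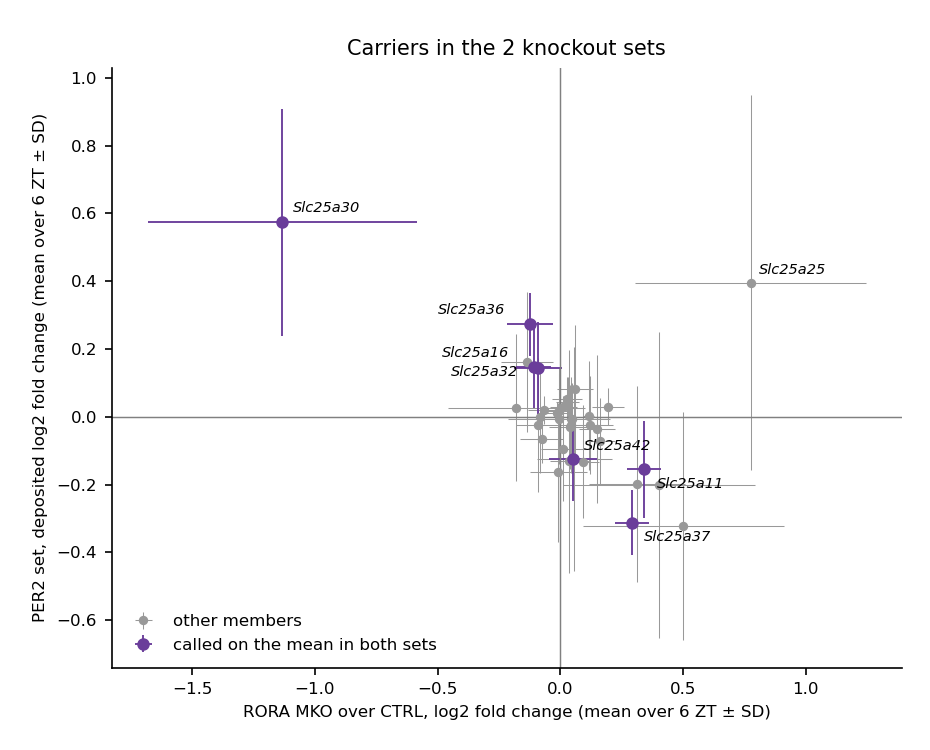
Mean log2 fold change over the 6 ZT in the PER2 set (deposited sign, vertical axis) against that in the RORA set (MKO over CTRL, horizontal axis), 1 point per carrier with the SD over ZT as bars, in purple for the 7 members called in both sets. The purple points lie to the upper left and lower right of 0, and Slc25a30 lies far from the others at -1.13 and 0.57.

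A difference in size that holds whichever way the PER2 tables are read was found for 5 of the 37 members, where 13.3% of shared genes passed, 8.21% with the larger effect in RORA and 5.07% in PER2. The effect was larger in RORA for Slc25a30 (larger adjusted p of the 2 readings 2.55e-06), Slc25a12 (6.28e-07), Slc25a11 (0.00296) and Slc25a4 (0.0489). It was larger in PER2 for Slc25a36 (adjusted p 0.0312), whose means were -0.12 in RORA and 0.27 in PER2. The 2 sets are unlike measures: RORA sizes may be understated, as with shrunken fold changes, and PER2 errors were derived from p. The part of this in the size differences was not tested. For Slc25a37, with means of 0.29 and -0.31, no unequal size was shown. With z values in place of log2 fold changes, which compare strength of evidence and not size, 15 members passed, and Slc25a36 was not among them.

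Genes that work beside the carriers mostly rose in RORA MKO muscle. Of 29 nuclear-encoded oxidative phosphorylation genes 28 rose and 1 fell, with a median mean of 0.18. Of all RORA genes 18.9% rose, and 53% of those with a mean count of at least 50 were called in either direction. In the PER2 set 9 of 29 were called, all negative (median -0.12), against 10.6% of all genes. Their PER2 medians were 0.15, -0.39, -0.07, -0.29, -0.06 and -0.03 from ZT0 to ZT20. The lowest were at ZT4 and ZT12, where PER2 fold changes went with transcript length (Spearman's rho 0.522 and 0.443). The part of that trend in these values was not tested. Of 11 listed enzymes and partners of the malate-aspartate shuttle and of adenylate and creatine exchange all 11 rose, among them Ppif, a regulator of the mitochondrial permeability pore (0.46 ± 0.12), malate dehydrogenase Mdh2 (0.18 ± 0.05) and adenylate kinase Ak1 (0.17 ± 0.06). In the PER2 set 3 of those 11 were called, all negative, among them Ak4 (-0.96 ± 0.42) and Ppif (-0.28 ± 0.18). The PER2 medians of the 11 were also lowest at ZT4 (-0.28) and ZT12 (-0.24). Among the carriers called in RORA, 13 of 20 rose, and of the 4 members at the membrane steps of ATP export and of the shuttle in muscle (Slc25a3, Slc25a4, Slc25a11 and Slc25a12) all rose. These 4 were grouped after their values were seen.

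Genes of other mitochondrial transport proteins went both ways. Of 25 such genes listed for RORA, 11 rose, 7 fell and 7 were not called. Among all RORA genes 38.2% were called, and 53% of those with a mean count of at least 50. The sideroflexin Sfxn3, of a family that carries serine, fell by 0.55 ± 0.12, the heme-related transporter Abcb10 rose by 0.30 ± 0.08 and the outer membrane channel Vdac1 rose by 0.11 ± 0.03. In the PER2 set 2 of 24 were positive, Micu3 (0.29 ± 0.13) and Micu2 (0.14 ± 0.03), which regulate the calcium uniporter. Another 5 were negative, with Sfxn2 (-0.47 ± 0.21) having the smallest adjusted p. Of all PER2 genes 10.9% were positive and 10.6% negative. Of 15 genes for the import of carriers through the TIM22 complex 5 rose in RORA MKO muscle, where 18.9% of all genes rose. Among the 5 were Timm22, its channel subunit (0.22 ± 0.09), Timm29 (0.10 ± 0.03) and the receptor Tomm22 (0.08 ± 0.06). In the PER2 set none of the 15 was called on the mean by Stouffer's sum (21.6% of all genes), with 2 at an unadjusted p under 0.05.

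Family members that carry other symbols were looked at separately. Ucp3, the uncoupling protein of skeletal muscle, rose by 0.43 ± 0.42 on the mean in RORA MKO muscle, with 1.14 at ZT8 and values of -0.02 at ZT0 and 0.05 at ZT16 in the authors' deposited tables. Like Slc25a25 it had its highest value at ZT8. Mtch1, an outer membrane relative of the carriers, rose by 0.07 ± 0.05, and Mtch2 and Ucp2 were not called on the mean. Ucp1, the uncoupling protein of brown fat, had 3.85 at ZT0 in the authors' deposited table at a mean level of 3.25 normalized counts and was not called on the mean (0.78 ± 1.52). None of the 4 such genes listed in the PER2 tables was called on the mean by Stouffer's sum, and 0 had an unadjusted p under 0.05.

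Markers of other cell types were set beside these values. In the RORA set all 8 endothelial markers rose (median 0.16). Of 6 brown fat markers 2 rose and 1 fell, and Ucp1, Cidea and Zic1 were not called on the weighted mean. Ucp1 and Cidea had their highest values at ZT0, 3.85 and 0.86 in the authors' deposited table. None of the 8 white fat, 8 macrophage and leukocyte, 8 Schwann cell and 4 liver markers was called on the weighted mean, with 1 of them, a Schwann cell gene, at an unadjusted p under 0.05. At ZT20 the authors' deposited table called 1 liver marker higher, at 5.64, with a mean level of 18.3 normalized counts. The white fat and Schwann cell markers were called in opposite directions at different ZT. White fat markers called in the authors' deposited tables were 6 of 8 at ZT0, all lower (median -0.75), 4 at ZT4, all lower (median -0.27), and 6 at ZT20, all higher (median 0.44). Of the Schwann cell markers the authors' deposited tables called 4 lower at ZT0 (median -0.16), 5 lower at ZT4 (median -0.30), 3 higher at ZT8 (median 0.20) and all 8 higher at ZT20 (median 0.62). Of the 8 endothelial markers 5, 1, 7, 6, 1 and 7 were called higher at ZT0, 4, 8, 12, 16 and 20. Of the 12 skeletal muscle markers 4 rose and 4 fell, with a median close to 0. In the PER2 set 3 of 8 endothelial markers were negative, and none of the 7 white fat, 4 brown fat, 7 macrophage and leukocyte, 7 Schwann cell and 1 liver markers listed was called by Stouffer's sum, with 1 brown fat and 1 Schwann cell gene at an unadjusted p under 0.05. At single ZT the authors' deposited PER2 tables called 1 endothelial and 1 skeletal muscle marker negative at ZT4 and the liver marker positive at ZT20. They also called all 5 listed red blood cell genes negative at ZT4 and 4 of the 5 at ZT12. The part of these cell types in the carrier values was not tested.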

How the data were processed

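Total RNA of mouse muscle was made into stranded poly-A libraries and sequenced, per the labels' protocols. The submitters' processing notes list DESeq2, STAR, Trimmomatic, bcl2fastq 2.20.0.422, R 4.1 and MultiQC as tools, and mm9 and GRCm39 as builds, without saying what each was used for. How reads were counted is not given in the sources used here. The 12 deposited tables hold comparisons of MKO with CTRL, 1 for each of 2 knockouts and 6 ZT, so no library total is known. Per the file headers, a RORA table gives for each of 14253 genes its log2 fold change, the error of that change, p-value, adjusted p and mean normalized count (a signal level, the same in the 6 tables), after a filter of 10 reads in 3 samples, per the labels' sample descriptions. A PER2 table, per the file headers, gives for each of 12952 genes its log2 fold change, likelihood ratio score, p-value, adjusted p and mean log2 CPM, with no error and no stated direction. CPM levels are powers of 2 of the deposited log2 CPM. Deposited RORA fold changes over their errors came to a median of 0.779 times the z of the p-value over all genes and 0.821 over members, as with shrunken fold changes, so RORA sizes may be understated. Reads of overlapping genes or of processed copies of abundant carriers such as Slc25a3, Slc25a4 and Slc25a5 may be split between genes, since the counting is not stated.

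The members, the other gene lists and the tests were chosen with earlier results of these data known. Per ZT the authors' adjusted p under 0.05 was the call. Over ZT, RORA values were averaged with inverse-variance weights, and the signed z values of PER2 were added by Stouffer's method. Cochran's Q tested the change with ZT (5 degrees of freedom), with PER2 errors derived as the size of the fold change over its z. Sizes in the 2 sets were compared as the difference and as the sum of the weighted means, called when both passed. Two-sided normal p-values were adjusted by Benjamini-Hochberg over all genes. The scripts were tested on simulated data. Alternatives left out each ZT, or ZT4 and ZT12 together, used limma on the 6 values per gene, a level minimum (50 counts or 1 CPM), another combination, a threshold of 0.01 or a trend in transcript length and GC content removed. GENCODE M21, on another build than the notes name, gave names, transcript length and GC content. Named with values at each ZT were called members with the 6 highest and 6 lowest RORA means and the 4 highest and 4 lowest PER2 means, up to 4 for change with ZT and the 6 with the highest level per kb, except Slc25a51, given by its level and mean. From the other lists up to 3 called genes with the smallest adjusted p were named, and genes outside these rules, such as single-ZT calls, were named after their values were seen. Of the carriers 1, and 1 gene of another list, are counted but not reported singly here. Python 3.11.15, NumPy 2.4.6, pandas 2.3.3, SciPy 1.17.1, matplotlib 3.10.9, R 4.3.3 and limma 3.58.1 were used.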

Additional observations from a re-analysis of the deposited data

Results flagged for a closer look

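The effect of the RORA knockout differed between ZT for 11 members by Cochran's Q adjusted over all genes. The adjusted p was 3.69e-10 for Slc25a30, 1.61e-09 for Slc25a3, 4.52e-05 for Slc25a34, 0.000303 for Slc25a12, 0.0051 for Slc25a29, 0.00722 for Slc25a11, 0.00926 for Slc25a25, 0.0162 for Slc25a13, 0.0168 for Slc25a42, 0.0414 for Slc25a47 and 0.0489 for Slc25a16. Slc25a29 and Slc25a47 were not called on the mean over ZT: Slc25a29 was lower in MKO at ZT8 (-0.46) and ZT12 (-0.58) and lay between -0.18 and 0.08 at the other ZT, and Slc25a47 was lower at ZT8 (-0.39) and higher at ZT20 (0.20), as listed in the authors' deposited tables. Slc25a42 stood out at ZT8 alone (0.23) and Slc25a16 was close to 0 at ZT0 alone (0.02), in the authors' deposited tables.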

How the results depend on the processing

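The RORA calls held best: leaving out 1 ZT at a time gave 10 to 13 members higher and 6 or 7 lower, and the other settings 11 to 15 higher and 5 to 10 lower, against 13 and 7. Slc25a3, Slc25a4, Slc25a10, Slc25a11, Slc25a12, Slc25a16, Slc25a25, Slc25a27, Slc25a30, Slc25a36, Slc25a37 and Slc25a39 held under each of these settings that could be computed for them. With limma on the 6 values per gene the adjusted p was 0.0505 for Slc25a34, 0.10 for Slc25a32, 0.113 for Slc25a44, 0.0884 for Slc25a28 and 0.321 for Slc25a42. Called members grew by 5 with Stouffer's sum and by 5, less 2, with the trend in length and GC content removed. Those gained with Stouffer's sum were Slc25a5 (adjusted p 0.00906), Slc25a14 (2.82e-04), Slc25a26 (0.0431), Slc25a29 (6.21e-04) and Slc25a38 (0.00515). Those gained on the weighted mean with the trend removed were Slc25a5 (0.0215), Slc25a17 (0.0339), Slc25a29 (0.0311), Slc25a38 (0.00441) and Slc25a46 (1.83e-04). The change of Slc25a25 with ZT was not called with Q on z values (adjusted p 0.0875). Removing that trend from the RORA values was chosen after seeing the data, and it ended the calls of Slc25a32 (adjusted p 0.227) and Slc25a42 (0.815). In the PER2 set 4 members were positive on the mean, and 2 with limma and 2 without ZT4 and ZT12. PER2 members negative on the mean numbered 3, and 1 to 5 when 1 ZT was left out (5 without ZT0, 1 without ZT4, 1 without ZT12), 1 with limma, 1 without ZT4 and ZT12 and 1 with the trend removed. Slc25a30, Slc25a36 and Slc25a37 held under each of these. At a threshold of 0.01 the PER2 calls were 1 rather than 3 at ZT0, 1 rather than 7 at ZT4 and 0 rather than 2 at ZT8, and with the trend removed 2 at ZT4. In the comparison of the 2 sets 15 members passed on z values, which compare evidence and not size, against 5 on log2 fold changes. The cause of these changes was not tested beyond the settings named. No paired analysis was possible because the tables hold comparisons and no value per library, and for the same reason no single library could be left out. No member called on the mean, before or after a change of setting, changed sign, while means near 0 that were not called did.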
